A study of Mus musculus with 6 samples.

Results

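The genes described here encode 10 transcription factors and cofactors known to be induced by, or needed for, the ovulatory response of the follicle: Pgr, Runx1, Runx2, Cbfb, Cebpa, Cebpb, Cebpd, Nrip1, Hif1a and Gata6. The choice followed their known roles and used no threshold on their values, though earlier results of these data were known when it was made. Of the 10, 9 were measured among 22180 genes on the arrays. Runx2 was named by no probe set and is not analysed here. RNA came from mouse cumulus-oocyte complexes (COCs), which are immature oocytes enclosed by their somatic cumulus cells.

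All COCs came from wildtype females primed with 5 IU of equine chorionic gonadotropin for 46 h, and the labels put the age of the mice at 21 days in the growth protocol and 23 days among the characteristics. Each culture of 100 COCs received vehicle (the 3 DMSO samples) or 5 µM Torin1, which blocks the ATP site of the kinase MTOR (the 3 Torin1 samples). The time is 14 h in one label and 16 h in another. Both groups shared a medium holding 3 mg/ml of bovine albumin and 5 µM milrinone, which blocks the phosphodiesterase PDE3 and so holds the oocyte in meiotic arrest. Whether the samples of a group are separate mice or days is not in the labels, and the p-values describe the spread among these samples alone, which can be technical.

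In the follicle the surge of luteinizing hormone acts mainly on mural granulosa cells, which pass the signal to the cumulus through ligands of the epidermal growth factor receptor. The progesterone receptor PGR, the RUNX factors with their shared partner CBFB, the C/EBP factors and the coregulator NRIP1 then act on genes of matrix expansion, follicle rupture and luteinization. HIF1A is a subunit of the hypoxia-inducible factor, whose protein is controlled chiefly by oxygen-dependent breakdown, and GATA6 acts with GATA4 on steroidogenic and gonadal genes. No luteinizing hormone or epidermal growth factor is named in the labels for either group.

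The promoters of the 4 factors with the largest rises are shown first. Whether these sequences bear on the rises was not tested. Windows from the RefSeq promoter table (assembly GRCm38.p6) were used for 8 of the 10 genes, with 10 start sites. None was used for Cebpd or Gata6. The search for the factors left out a chromosome that the counts over all windows kept. Each sequence below is the 250 bases before a start site, written 5′ to 3′ on the gene's strand. Capitals mark matches, on either strand, to 5 motifs: the cAMP core TGACG, the promoter element known as CCAAT, the hypoxia response core with the letters ACGTG, the EGR site (letters GCGGGGGCG) and the TATA element (letters TATAAA).
Runx1, the upstream start site (chr16:92826075-92826324, minus strand): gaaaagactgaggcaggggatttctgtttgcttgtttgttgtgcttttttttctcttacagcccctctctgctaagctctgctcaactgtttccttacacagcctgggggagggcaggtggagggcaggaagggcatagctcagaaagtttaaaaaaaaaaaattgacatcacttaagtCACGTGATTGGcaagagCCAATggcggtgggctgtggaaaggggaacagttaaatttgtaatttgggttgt
Runx1, the downstream start site (chr16:92697330-92697579, minus strand): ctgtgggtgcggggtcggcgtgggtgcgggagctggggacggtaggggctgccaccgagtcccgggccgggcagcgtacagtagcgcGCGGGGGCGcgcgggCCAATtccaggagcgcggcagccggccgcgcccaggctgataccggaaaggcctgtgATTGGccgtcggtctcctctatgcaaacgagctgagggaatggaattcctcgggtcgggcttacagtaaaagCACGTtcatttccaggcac
Cebpa (chr7:35119043-35119292, plus strand): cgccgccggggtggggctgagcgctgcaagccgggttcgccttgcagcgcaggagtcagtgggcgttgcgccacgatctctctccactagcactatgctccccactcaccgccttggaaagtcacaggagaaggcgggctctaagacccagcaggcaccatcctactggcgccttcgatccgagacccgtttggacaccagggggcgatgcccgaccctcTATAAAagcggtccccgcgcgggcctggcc
Cebpb (chr2:167688665-167688914, plus strand): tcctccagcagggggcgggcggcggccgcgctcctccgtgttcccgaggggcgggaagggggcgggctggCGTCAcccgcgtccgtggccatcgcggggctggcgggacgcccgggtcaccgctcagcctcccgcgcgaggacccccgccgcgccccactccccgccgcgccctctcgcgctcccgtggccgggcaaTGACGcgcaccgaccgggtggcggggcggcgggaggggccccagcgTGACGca
Hif1a (chr12:73907617-73907866, plus strand): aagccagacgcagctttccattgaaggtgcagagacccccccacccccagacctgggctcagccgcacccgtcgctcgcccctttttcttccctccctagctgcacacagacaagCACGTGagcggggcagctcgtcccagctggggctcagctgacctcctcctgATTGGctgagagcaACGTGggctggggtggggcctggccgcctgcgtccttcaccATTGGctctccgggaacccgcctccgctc
The values of 1 probe set do not tell the pair of Runx1 start sites apart.

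The cAMP core occurred in the Cebpb window alone among the 10, at 3 places, and 17.7% of all 32817 windows of the same length held it. The whole cAMP response element, written TGACGTCA and holding that core on each strand, was in 0 of the 10 windows and in 1.55% of all. The hypoxia core was found in both Runx1 windows and in that of Hif1a, against 16.6% of all windows; in the upstream Runx1 window and the Hif1a window it lies on both strands at 1 place, as a palindrome. The EGR site was found once, in the downstream Runx1 window, against 2.57% of all. The Cebpa window held the TATA element from 30 to 25 bases before its start, the Pgr window held it further upstream on the other strand, and 12.4% of all windows held it at any place. The GC box GGGCGG, not in capitals, was in 4 of the 10 windows (Cbfb, Cebpb, Nrip1 and Pgr) and in 32.7% of all. The CCAAT element stood in the windows of Runx1, Hif1a and Pgr, against 33.8% of all. The RUNX motif TGTGGT, held by 14.0% of all windows, and the C/EBP motif TTGCNNAA, held by 9.57%, were found in the Runx2 window alone. The GATA motif AGATAA was in 0 of the 10 windows and in 9.99% of all. All motifs were searched on both strands, and a match describes the letters only.

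Levels below are log2(intensity + 1), 1 value per array, and a change is Torin1 minus DMSO on that scale with its standard error (SE). A gene was called where the limma adjusted p over all genes was below 0.05; the 95% intervals are not adjusted. Of the 9 measured factors, 5 were called higher with Torin1 (Runx1, Cebpa, Cebpb, Hif1a and Cebpd), 0 were called lower and 4 were not called (Pgr, Cbfb, Nrip1 and Gata6). Over all genes 12.1% were called, 5.13% higher and 6.94% lower. The median change of the 9 factors was 0.41, beside 0.01 over all genes. Groups did not overlap for 6 of the 9 factors, and this held for 28.6% of all genes.

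**Figure D1:**
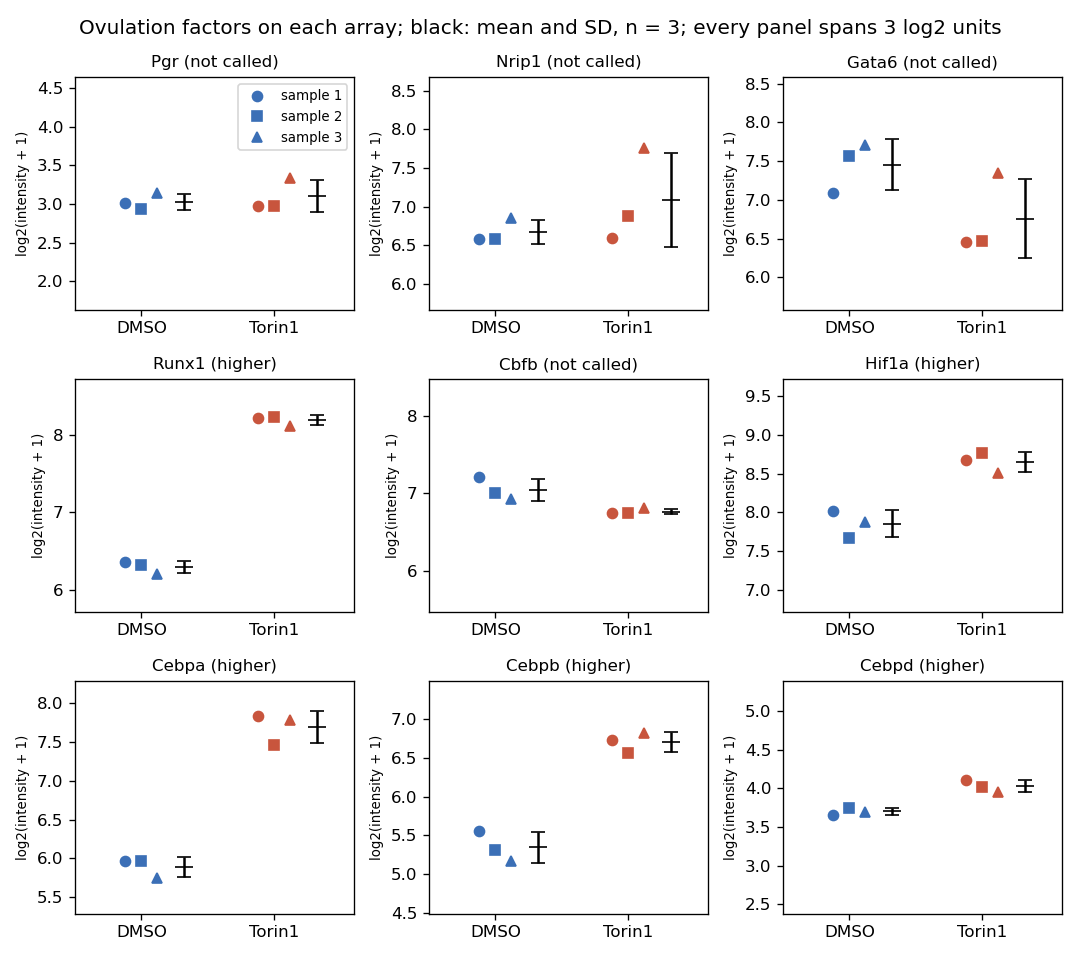
Level of each measured factor on the 6 arrays, as log2(intensity + 1), with DMSO in blue, Torin1 in red, 1 symbol per sample number and the group mean ± SD (n = 3) in black. Every panel spans 3 log2 units, so heights can be compared as changes; Runx1 and Cebpa show the widest separation, and Torin1 sample 3 lies apart for Nrip1 and Gata6.

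Runx1 encodes the DNA-binding subunit of a core-binding factor and is known to be induced in granulosa cells by the ovulatory signal. Its level was 6.36, 6.32 and 6.20 in DMSO samples 1, 2 and 3, and 8.22, 8.24 and 8.12 in Torin1 samples 1, 2 and 3. All 3 Torin1 samples lay far above all DMSO samples, and the spread within a group was small (SD of 0.08 in DMSO and 0.07 in Torin1, n = 3 each). Runx1 rose by 1.90 ± 0.08 (SE), or 3.73-fold (adjusted p = 5.5e-05). Leaving out any 1 array gave changes from 1.85 to 1.94.

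Cbfb encodes the subunit that does not bind DNA itself but stabilises RUNX proteins on it. It stood at 7.21, 7.00 and 6.92 in the DMSO samples and at 6.75, 6.74 and 6.81 in the Torin1 samples. The groups did not overlap, and each Torin1 sample lay below the lowest DMSO sample. The change was -0.28 ± 0.09 (SE) with a 95% interval of -0.50 to -0.06, and it was not called (adjusted p = 0.109). Within an array, the difference of Runx1 from Cbfb changed by 2.18 between the groups. Each gene alone separated the groups, in opposite directions, so their difference had to separate them too. The exact permutation p of 0.1 (two-sided, the smallest that 3 against 3 allows) was therefore fixed in advance and adds no evidence.

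Cebpa, Cebpb and Cebpd encode basic leucine zipper factors, of which C/EBPα and C/EBPβ are known to be needed in granulosa cells for ovulation and luteinization. Cebpa was at 5.96, 5.96 and 5.74 in the DMSO samples and at 7.83, 7.46 and 7.79 in the Torin1 samples. It rose by 1.81 ± 0.12 (SE), or 3.49-fold (adjusted p = 0.000308). The lowest Torin1 value, in sample 2, was well above every DMSO value.

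Cebpb was at 5.55, 5.31 and 5.16 in the DMSO samples and at 6.73, 6.56 and 6.82 in the Torin1 samples. It rose by 1.36 ± 0.12 (SE), or 2.57-fold (adjusted p = 0.000787), again with no overlap. Cebpd was dim, at 3.66, 3.74 and 3.70 in DMSO and 4.10, 4.02 and 3.96 in Torin1, below the median gene's 4.17. Its groups did not overlap, and it rose by 0.33 ± 0.07 (SE; adjusted p = 0.0319). That call is the least firm of the 5, since it was kept only without Torin1 sample 3 (adjusted p = 0.0293) and lost without any other single array (adjusted p from 0.0707 to 0.111).

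Hif1a had values of 8.01, 7.67 and 7.87 in the DMSO samples and of 8.68, 8.77 and 8.51 in the Torin1 samples. All Torin1 values were above all DMSO values, and Hif1a rose by 0.80 ± 0.11 (SE), or 1.74-fold (adjusted p = 0.00547). It stayed called whichever array was left out (adjusted p up to 0.0274). A second, dimmer probe set of Hif1a alone overlapped between the groups, with 4.98, 5.39 and 5.59 in DMSO and 5.89, 5.59 and 5.38 in Torin1. Another probe set, shared with the pseudogene S100a11-ps, was at 4.77, 4.79 and 4.78 in DMSO and at 5.42, 5.40 and 5.27 in Torin1. Of the 3 probe sets, 2 therefore separated the groups in the same direction, and the change of the dimmer one was 0.30 ± 0.19 (SE; not called in a fit over all probe sets).

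**Figure D2:**
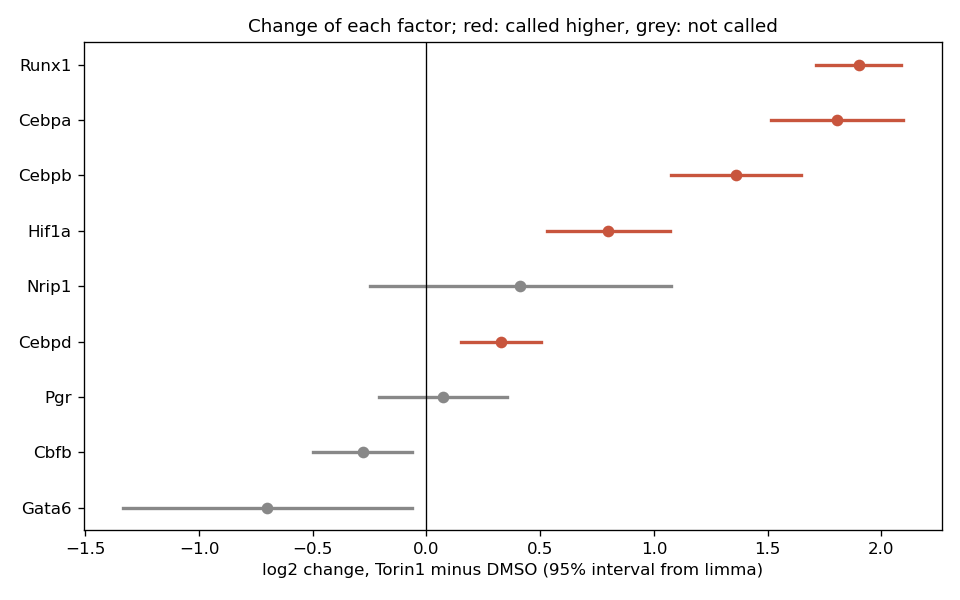
Change of each measured factor, log2 Torin1 minus DMSO, with the 95% interval from limma (3 samples a group). Red factors were called higher and grey ones were not called; the intervals of Nrip1 and Gata6 are the widest, at -0.25 to 1.07 and -1.34 to -0.06.

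Pgr encodes the nuclear progesterone receptor, which mural granulosa cells are known to make in response to luteinizing hormone. Its level was 3.01, 2.94 and 3.14 in the DMSO samples and 2.98, 2.98 and 3.34 in the Torin1 samples. The groups overlapped, and the mean over all arrays was at percentile 24.4 of genes, so the transcript was dim in both groups. The change was 0.07 ± 0.12 (SE), with a 95% interval of -0.21 to 0.36 (adjusted p = 0.824), and without Torin1 sample 3 it was -0.05. The arrays give no background per probe set, so whether Pgr was expressed at all was not settled.

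Nrip1 encodes a nuclear receptor coregulator that is required for cumulus expansion and ovulation in mice. It was at 6.58, 6.58 and 6.85 in the DMSO samples and at 6.60, 6.88 and 7.76 in the Torin1 samples. Torin1 sample 3 was high and Torin1 sample 1 lay within the DMSO range. The change of 0.41 ± 0.28 (SE) was not called (adjusted p = 0.473), and it was 0.07 without Torin1 sample 3.

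Gata6 showed the lowest change of the 9. Its values were 7.09, 7.57 and 7.71 in the DMSO samples and 6.46, 6.47 and 7.34 in the Torin1 samples. Torin1 samples 1 and 2 were below all DMSO samples, while Torin1 sample 3 lay within the DMSO range. The change was -0.70 ± 0.27 (SE), with a 95% interval of -1.34 to -0.06, and was not called (adjusted p = 0.167). Without Torin1 sample 3 it was -0.99 ± 0.18 and called (adjusted p = 0.0133).

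Torin1 sample 3 also stood apart over all genes. On the second principal component, which took 16.5% of the variance, it scored 30.4 while the other 5 arrays scored between -19.8 and 4.42. The first component took 67.2% and separated the groups. The description of Torin1 sample 3 carries the short name of sample 2; with samples 2 and 3 averaged and counted as 1 sample, 5 factors were again called higher and 0 lower. Median intensities of the arrays ran from 11.12 to 11.97. Leaving out an array moved the count of all genes called higher from 1138 to 710, 655, 674 and 757 (without DMSO 1, DMSO 2, DMSO 3 or Torin1 2), and the count called lower from 1540 to 1020, 844 and 1021 (without DMSO 1, DMSO 3 or Torin1 1).

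The labelled cell types were checked by their markers. All 12 oocyte markers were above the median gene, with summed intensities of 5747 to 6150 in DMSO and 6434 to 7048 in Torin1. Of them 2 were called higher (Figla and Dppa3), beside 5.13% of all genes. The groups did not overlap for 11, beside 28.6% of all genes. Of 11 granulosa and cumulus markers 10 were called lower, beside 6.94% of all genes. The sum of the 11 went from 3813 to 4041 in DMSO to 1867 to 2040 in Torin1. In RNA of whole complexes, fewer cells of a type and less RNA per cell cannot be told apart. The sum of 4 mural granulosa markers was 74.7 to 99.8 in DMSO and 349 to 441 in Torin1, where Mrap rose by 3.47 ± 0.14 and Cyp11a1, Cd34 and Nppc were not called. That of 6 endothelial markers was 101 to 107 and 147 to 268, where Cdh5 alone was called (2.33 ± 0.37). Leukocyte, theca and stroma, and surface epithelium markers summed to 73.7 to 82.3, 121 and 122 to 136 in DMSO and to 85.1 to 93.1, 83.8 to 150 and 78.4 to 129 in Torin1. Of these, Cd68 was called higher and Pdgfra lower, and 7 of 8 leukocyte markers lay below the median gene. The part of these shifts in the changes of the factors was not tested.

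Genes that act with or on the factors moved both ways. Of 43 measured partners and regulators 5 were called higher, 10 lower and 28 were not called, or 34.9% called against 12.1% of all genes, with a median change of 0.02. Trib1, whose product is known to promote the breakdown of C/EBP proteins, rose by 3.27 ± 0.20 (SE), from a DMSO mean of 4.16, near the median gene, to 7.42. Tle3, a Groucho-type corepressor that RUNX proteins can recruit, rose by 1.70 ± 0.12. Cebpg, which encodes a partner of other C/EBP proteins, rose by 0.83 ± 0.12, Zfpm1, a cofactor of GATA proteins, by 1.13 ± 0.19, and Ncoa3, a steroid receptor coactivator, by 0.33 ± 0.08. The last 3 are named to complete the count, after their values were seen.

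Epas1, which encodes HIF2α, moved opposite to Hif1a. It was at 8.02, 7.98 and 8.07 in the DMSO samples and at 5.39, 5.65 and 6.04 in the Torin1 samples, so every Torin1 value was below every DMSO value. It fell by 2.33 ± 0.16 (SE), or 5.03-fold (adjusted p = 0.000306). Arnt, the partner subunit of both, changed by -0.01 ± 0.08 and was not called. Arnt2, its relative, fell by 0.90 ± 0.14.

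Estrogen receptor genes were also lower. Esr2 fell by 1.53 ± 0.13 and was called whichever array was left out. Esr1 fell by 0.55 ± 0.11, and its call was lost without DMSO 1 or DMSO 3 (adjusted p up to 0.0731) and with the replicate block. Of the genes linked to progesterone outside the nuclear receptor, Pgrmc1 fell by 0.84 ± 0.10, Paqr8 by 0.79 ± 0.18 and Paqr7 by 0.35 ± 0.08, while Pgrmc2 (-0.15 ± 0.08) and Paqr5 (-0.01 ± 0.09) were not called. Trib2, a relative of Trib1 (-0.84 ± 0.10), Ctbp1, a corepressor that binds NRIP1 (-0.30 ± 0.07), and Fkbp5, a chaperone of steroid receptors (-0.49 ± 0.11), completed the 10 called lower. Gata4 changed by -0.03 ± 0.10 and was not called (adjusted p = 0.941). The count called lower was 5 without DMSO 1 or DMSO 3 and 6 without DMSO 2 or Torin1 1. Paqr7 was called in 0 of the 6 leave-outs, and Paqr8, Ctbp1 and, among the rises, Ncoa3 in 1 each, that without Torin1 3 (adjusted p up to 0.139 over these 4 genes).

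**Figure D3:**
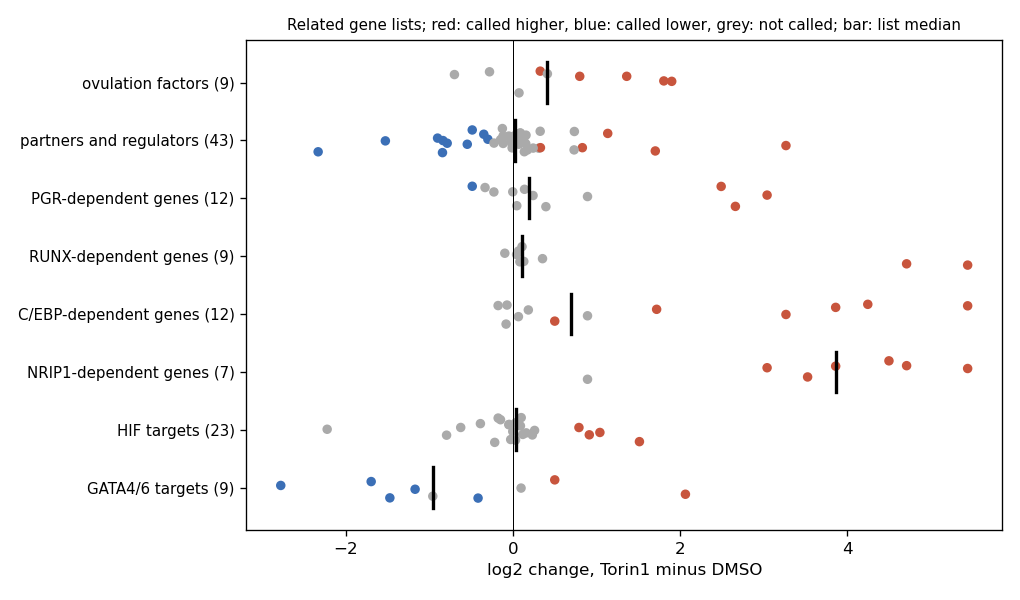
Change of each measured gene, log2 Torin1 minus DMSO, for the ovulation factors and 7 related lists (number measured in brackets). Red points were called higher, blue points lower and grey points not called, and the black bar is the list median, which is highest for the 7 measured NRIP1-dependent genes (3.86) and lowest for the GATA4/6 targets (-0.96).

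Genes known to depend on PGR in the ovulating follicle included 3 large rises. Of 12 measured, 3 were called higher, 1 lower and 8 were not called (33.3% against 12.1% of all genes), with a median of 0.19. Ereg, which encodes the ligand epiregulin, rose by 3.04 ± 0.08, Adamts1, a matrix protease gene, by 2.66 ± 0.22, and the chemokine receptor gene Cxcr4 by 2.49 ± 0.38. Of those not called, Edn2 (-0.002 ± 0.13), Prkg2 (0.05 ± 0.10), Snap25 (0.39 ± 0.14) and Il6 (0.89 ± 0.27) were dim. Their means lay below the median gene's 4.17 in both groups, where the scale compresses changes and expression was not shown. The groups did not overlap for Il6 or for the brighter Pparg (-0.33 ± 0.11, adjusted p = 0.0966). Without Torin1 sample 3 the list had 5 called higher, with Il6 and Snap25 added, and 2 lower, with Ctsl added. Fkbp5, the fall, lost its call when DMSO 1, DMSO 2, DMSO 3 or Torin1 1 was left out, with an adjusted p of at most 0.105.

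Of 9 measured genes that depend on RUNX factors, 2 were called higher, 0 lower and 7 were not called. The share called was 22.2% against 12.1% of all genes, and the median was 0.11. The 2 were Ptgs2 (5.44 ± 0.45) and Tnfaip6 (4.71 ± 0.20), of prostaglandin synthesis and the hyaluronan matrix. The other 7 had changes from -0.10 to 0.35, but all of them except Rgcc lay below the median gene's 4.17, where the scale compresses changes and expression was not shown.

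Among 12 C/EBP-dependent genes 6 were called higher, 0 lower and 6 were not called (50% against 12.1% of all genes), with a median of 0.70. Sult1e1, an estrogen sulfotransferase gene, and Ptx3, a matrix protein gene, rose by 4.24 ± 0.20 and 3.86 ± 0.13. Cited4, a transcriptional coactivator gene, rose by 1.72 ± 0.26, and Star, the cholesterol carrier of steroid synthesis, by 0.50 ± 0.08. The remaining calls were Ptgs2 and Trib1, given above; Cited4 and Star are named to complete the count, after their values were seen. The acute-phase genes Lcn2, Saa3 and Hp, which C/EBP factors drive in other tissues, lay at -0.08 ± 0.08, -0.07 ± 0.07 and 0.07 ± 0.14 and were not called. Their means in both groups were below the median gene's 4.17, where the scale compresses changes and expression was not shown.

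Of 7 measured NRIP1-dependent genes 6 were called higher and 0 lower (85.7% against 12.1% of all genes), with a median of 3.86. These were Ereg, Btc, Ptgs2, Has2, Tnfaip6 and Ptx3, and 4 of them (Ereg, Ptgs2, Tnfaip6 and Ptx3) stand in the lists above. Btc and Has2 rose by 4.50 ± 0.20 and 3.52 ± 0.17. Nrip1 itself was not called, as given above. Il6, at 0.89 ± 0.27, was not called (adjusted p = 0.0788).

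Of 9 measured GATA4/6 targets 5 fell, 2 rose and 2 missed the call (77.8% called against 12.1% of all genes), with a median of -0.96. Fshr, Hsd17b1 and Foxl2, all of the granulosa lineage, fell by 2.78 ± 0.40, 1.70 ± 0.14 and 1.47 ± 0.12, and Amh and Inha fell by 1.17 ± 0.17 and 0.42 ± 0.08. Inhba rose by 2.06 ± 0.21, and the other rise was the dim Star, given above. Of these 9, Fshr, Foxl2, Amh and Inha are also among the granulosa markers, whose summed level was lower with Torin1. Inha lost its call when DMSO 1, Torin1 1 or Torin1 2 was left out, with an adjusted p of at most 0.0572, and with the replicate block, while the other 4 falls stayed called in each of these.

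HIF targets, genes that hypoxia-inducible factors are known to turn on, had few calls. Of 23 measured, 4 were called higher, 0 lower and 19 were not called (17.4% against 12.1% of all genes), with a median of 0.03. The 4 were Bhlhe40, a transcriptional repressor gene (1.51 ± 0.30), the glucose transporter gene Slc2a1 (1.04 ± 0.20), Ddit4, an inhibitor of MTOR complex 1 (0.91 ± 0.21), and the hexokinase gene Hk2 (0.79 ± 0.14). Of the 4, Hk2 alone stayed called whichever array was left out. The count called higher was 2 without DMSO 2 or Torin1 1 and 1 without Torin1 2. Bhlhe40 was called in 4 of the 6 leave-outs, Slc2a1 in 3 and Ddit4 in 1.

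Within the DMSO group the HIF targets set sample 1 apart. DMSO sample 1 was the lowest of the 3 DMSO samples for 22 of 23 HIF targets (95.7%), beside 34.3% of all genes. Egln3, a HIF prolyl hydroxylase gene, was at 5.70 in DMSO sample 1 and at 8.15 and 8.38 in samples 2 and 3. Ndrg1 was at 6.24, 8.31 and 8.73, and Adm, the adrenomedullin gene, at 4.39, 7.16 and 7.76 in DMSO samples 1, 2 and 3. On its brightest probe set Hif1a did not follow them, since its DMSO value there was highest in sample 1. The probe sets of Hif1a differed in this. The dimmer one of Hif1a alone was lowest in sample 1, at 4.98, 5.39 and 5.59 in DMSO samples 1, 2 and 3. The one shared with S100a11-ps was level, at 4.77, 4.79 and 4.78. In the Torin1 group, sample 3 was lowest for 17 of the 23 (73.9%, beside 34.7% of all genes).

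**Figure D4:**
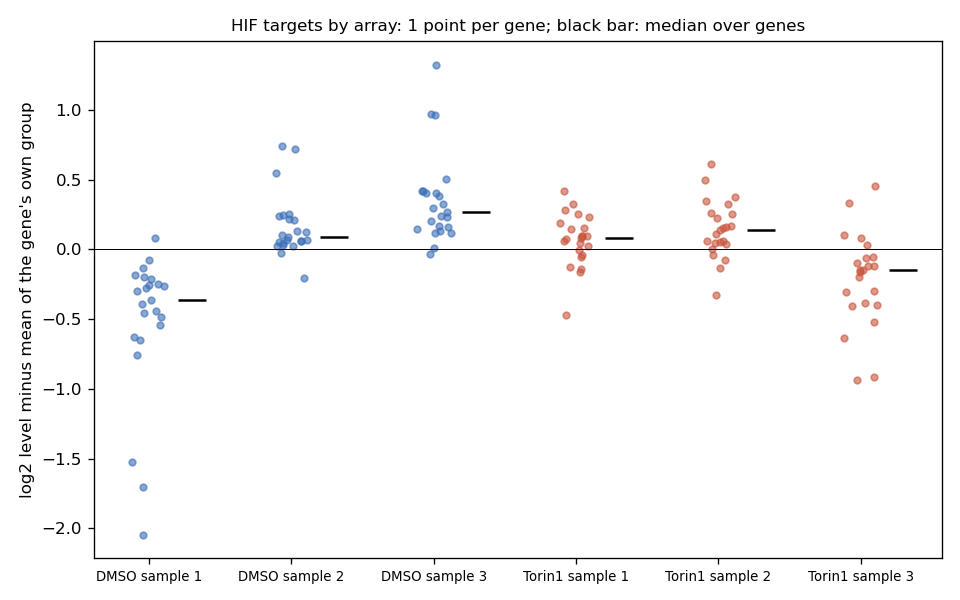
HIF targets on each array, as log2 level minus the mean of the gene's own group of 3 samples; 1 point per gene (23 genes), and the black bar is the median. The median is -0.36 in DMSO sample 1, 0.09 and 0.27 in DMSO samples 2 and 3, and -0.15 in Torin1 sample 3.

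Calls of HIF targets differed with and without DMSO sample 1. Without it 2 targets were called lower, Adm with a change of -3.25 ± 0.23 (adjusted p = 0.00171) and Pdk1, whose product restrains pyruvate oxidation, with -0.85 ± 0.15 (adjusted p = 0.0257). With all 6 arrays Adm was at -2.22 ± 0.79 and not called (adjusted p = 0.136). The 4 rises named above were 3 without DMSO sample 1, as Ddit4 was lost. Because sample 1 was the lowest for most HIF targets, leaving it out had to raise their DMSO means. The direction of these shifts therefore adds no evidence. Without Torin1 sample 3, the lowest of its group for most targets, 4 were called higher, with Hilpda added and Ddit4 lost, and 0 lower. The HIF targets are known to be regulated together, so these counts are not counts of independent genes.

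The genes most like Runx1 and Gata6 over the 6 arrays were found by the distance between values after each gene's mean was subtracted. Nearest to Runx1 were Vgll4, Ugdh and Slc7a8, with changes of 1.80, 2.03 and 1.70 and distances of 0.26 to 0.27 log2 units. Nearest to Gata6 were 1500009L16Rik, Pck2 and Rgs7bp, with changes of -0.71, -0.72 and -0.76, none of them called (adjusted p from 0.109 to 0.233). The 6 arrays share the split into groups, so the measure describes these arrays only.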

How the data were processed

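The 10 genes and the related lists were chosen with earlier results of these data known. The authors deposited 1 linear intensity per probe set and array. The submitters' processing notes name GCOS, RMA and version 1.1 of Affymetrix Expression Console, with no settings or build. Because RMA gives all arrays the same distribution, changes are relative to other transcripts. Of 41345 probe sets, 23521 named 1 gene, 1814 named several and were left out, and the rest were unnamed here. For each of 22180 genes the probe set with the highest mean of log2(intensity + 1) was kept; the pseudocount of 1 understates changes of dim genes. Torin1 and DMSO samples (3 each, grouped by title) were compared with limma 3.58.1 in R 4.3.3 (lmFit, eBayes, two-sided, no covariate). Benjamini-Hochberg adjustment was over all genes. In simulated data 50 genes of each size of change were altered among 22180, a far smaller share than the 12.1% called here. The fit called 24% of log2 changes of 0.5, 74% of those of 1, 96% of those of 2 and 100% of those of 3. With so few altered genes these rates can understate those of the real fit. A gene that was not called can therefore still have changed. All 10 factors were named, and up to 4 called genes per list by size of change, or the 2 with the smallest p. Lists held genes known to act with the factors or to depend on them. Alternatives were 7 settings and the removal of each of 6 arrays. The number of arrays limits the precision.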

Additional observations from a re-analysis of the deposited data

How the results depend on the processing

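Over the 13 alternatives the calls of Runx1, Cebpa, Cebpb and Hif1a kept their direction and stayed called. Cebpd was not called with a trended variance (adjusted p = 0.0645) or the replicate block (adjusted p = 0.127), and Cebpd and Pgr have no value above the median level. The change of Pgr ran from -0.0471 (without Torin1 replicate 3) to 0.1332 when 1 array was left out. Same-numbered samples did not deviate together (correlations of -0.207, -0.299 and -0.148), so the numbers were not taken to pair them; with the replicate block, 657 genes were called higher, 908 lower, 6 partners lower and 0 PGR-dependent genes lower. With the mean of all probe sets 1 HIF target was lower (Pdk1), and above the median level 1 GATA4/6 target was higher. Leaving out 1 array gave 655 to 1389 genes higher and 844 to 1694 lower, 0 to 1 factors lower, 5 to 9 partners lower, 3 to 5 PGR-dependent genes higher and 0 to 2 lower, and 1 to 4 HIF targets higher and 0 to 2 lower. Dim genes such as Pgr and Cebpd lie where the scale compresses changes.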
